A study of Mus musculus with 6 samples.

Results

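Targets of the liver X receptors (LXRs) and genes of cholesterol efflux were examined in mRNA sequencing of mouse cells labelled as Kupffer cells. Kupffer cells are macrophages resident in liver sinusoids. The set held 10 genes, chosen by gene symbol from the 56691 genes of the deposited table: Abca1, Abcg1, Mylip, Apoe, Apoc1, Srebf1, Lpcat3, Scd1, Scd2 and Pltp. Each symbol had 1 row, and the 10 genes all passed the filter on low counts, which left 16641 genes for testing. The cells came from mice of the genotype Vil1Cre-Myd88fl/fl, in 3 libraries labelled untreated and 3 labelled 5-HT treated, 5-HT being serotonin. Vil1Cre expresses Cre recombinase in the intestinal epithelium, so both groups share the floxed Myd88 allele and the transgene, and the Kupffer cell is not the cell type in which the driver is known to act. The untreated libraries carry names that begin with KO, and no library from mice without the transgene was part of the comparison. The sources used here do not give the dose, route, duration, age or animals per library, nor whether mice or isolated cells received the serotonin. Nothing says that libraries came from separate animals, so p-values measure a spread that may be technical.

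LXRs are nuclear receptors that bind oxysterols, the oxidised forms of cholesterol, and act on DNA as heterodimers with retinoid X receptors (RXRs). In cholesterol-loaded macrophages they raise the transporters that pass cholesterol to lipoproteins, the apolipoproteins that accept it, the ubiquitin ligase that limits lipoprotein uptake, and the lipogenic factor SREBP1c with enzymes that desaturate fatty acids and remodel phospholipids. Kupffer cells take up modified lipoproteins and dying cells and have to dispose of the cholesterol they bring.

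Total counts per library ran from 15390956 to 19050039. The label of the cells was checked against fixed marker lists, whose summed FPKM (counts scaled to exonic length and library total) is given here by group. The 12 Kupffer cell markers, led by C1qb and Clec4f, summed to between 891.1 and 1227 FPKM in untreated and between 1358 and 1561 in treated libraries, and 3 of them passed the test as higher. The 9 markers of liver endothelium, led by Clec4g and Lyve1, summed to more, between 3538 and 3642 FPKM in untreated and between 3044 and 4095 in treated libraries, with 1 higher and 2 lower. In each library the endothelial sum was thus above the Kupffer cell sum, and sums of different genes do not give the share of cells. Hepatocyte markers (Alb, Trf) summed to 868.3 to 1222 and 631.5 to 1923 FPKM, with 0 of 10 past the threshold. Neutrophil markers (S100a9, S100a8) summed to 141.9 to 172.9 and 347.6 to 911.9 FPKM, with 5 of 8 tested higher. The other 3 did not pass, and 2 of these had negative log2 values. Stellate cell and fibroblast markers (Dcn, Col3a1) summed to 94.9 to 166.5 and 41.5 to 114.8 FPKM, with 1 of 9 lower. Monocyte (Plac8, Chil3), B cell (Jchain, Cd79a), T and NK cell (Gzma, Trac), dendritic cell (Clec9a, Zbtb46) and cholangiocyte (Epcam, Krt19) lists had no member past the threshold, and no gene of the marker lists was at 0 in all libraries. Calls were made below an edgeR adjusted p of 0.05, and 4.55% of all tested genes were called higher and 3.19% lower. In such bulk samples fewer cells of a type and less RNA per cell cannot be told apart.

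**Figure D1:**
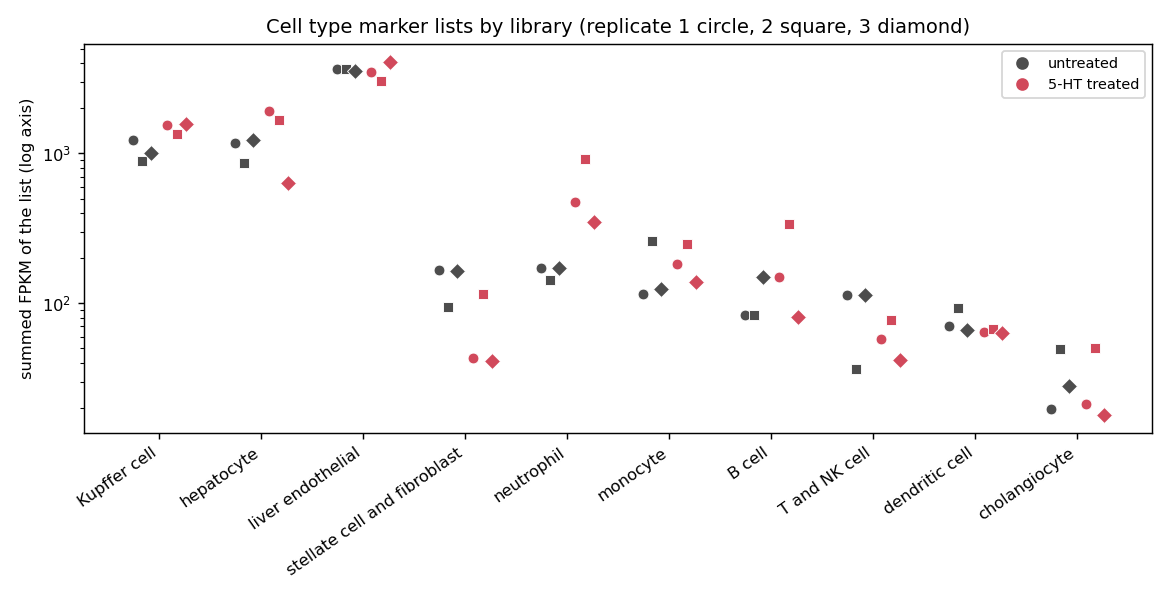
Summed FPKM (log axis) of each cell type marker list in the 6 libraries, untreated in grey and 5-HT treated in red, with a symbol for each replicate number. The endothelial list is the highest in every library, the Kupffer cell list is higher in each treated library (1358 to 1561) than in any untreated library (891.1 to 1227), and the neutrophil list reaches 911.9 in treated replicate 2.

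The cholesterol exporters Abca1 and Abcg1 rose with 5-HT, and Mylip fell. Abca1 went from 26.3 ± 4.35 to 63.3 ± 10.1 FPKM, Abcg1 from 15.5 ± 0.645 to 25.1 ± 1.63 FPKM, and Mylip from 153.8 ± 6.88 to 85.8 ± 17.3 FPKM (mean ± SD, n = 3 per group). The other 7 genes did not pass the threshold, among them Apoe, the most abundant, at 1166 ± 89.0 and 1215 ± 37.7 FPKM. The 3 calls of 10, 2 higher and 1 lower, stand beside 7.74% of all tested genes called, 4.55% as higher and 3.19% as lower, with calls made below an edgeR adjusted p of 0.05. The groups did not overlap for 5 of the 10, with 4 above and 1 below, against 29.6% of all tested genes, 15.4% above and 14.3% below. The median log2 fold change of the 10 genes was 0.31, ranging from -0.83 to 1.27, and that of all tested genes was -0.02.

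**Figure D2:**
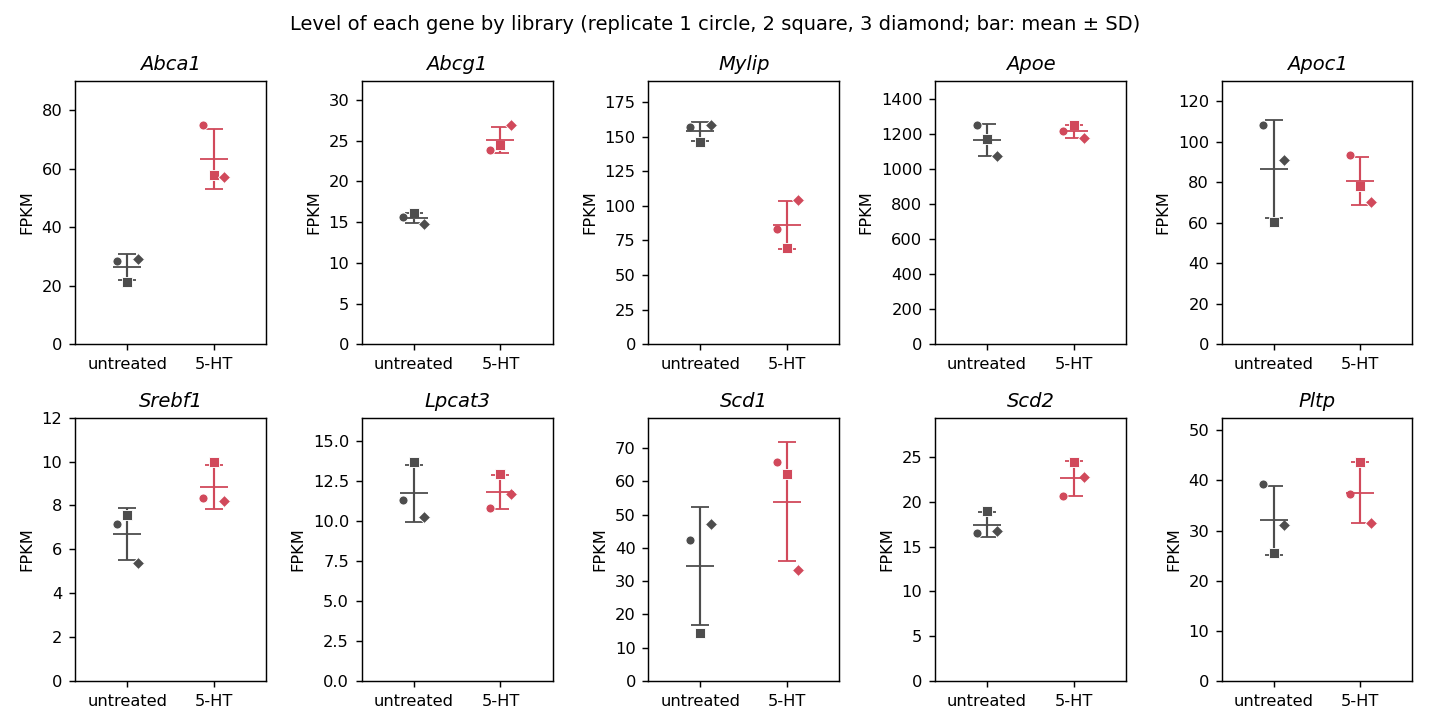
FPKM of the 10 genes in each library (axes from 0), with the mean and SD of 3 libraries per group and a symbol for each replicate number. Treated libraries lie above the untreated ones for Abca1, Abcg1, Srebf1 and Scd2 and below them for Mylip, and the groups overlap for the other 5.

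The order of levels, which FPKM allows because it is per length, changed around Abca1. In untreated libraries the mean levels fell from Apoe (1166 FPKM) through Mylip (153.8), Apoc1 (86.5), Scd1 (34.6), Pltp (32), Abca1 (26.3), Scd2 (17.4), Abcg1 (15.5) and Lpcat3 (11.8) to Srebf1 (6.70). Within that order the library ranges of Scd1 and Pltp overlapped, as did those of Pltp and Abca1, and those of the other neighbours did not. In treated libraries Abca1 came after Apoe, Mylip and Apoc1 and before Scd1, and each pair of neighbours from Mylip down to Pltp had overlapping ranges, as had Abcg1 and Scd2. The ratio of Mylip to Abca1 in FPKM was 5.51, 6.85 and 5.43 in the untreated libraries (replicates 1 to 3) and 1.11, 1.21 and 1.82 in treated replicates 1 to 3, a ratio chosen after its values were seen and given without a test.

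Promoter windows of the called genes Abca1 and Mylip are shown because both are LXR targets that changed in opposite directions. A window of Srebf1, which was not called, is shown because it holds an element of the kind LXRs bind, as that of Abca1 does. The windows are from RefSeq (GRCm38.p6) and run from 250 bases before to 50 bases after a transcription start, printed 5′ to 3′ on the strand of the gene. LXR and RXR bind a direct repeat of the hexamer AGGTCA with 4 bases between them, called DR4. The capitals mark a relaxed form of it, GGTNANNNNNGGTNA on either strand, in which N is any base. The Abca1 window is chr4:53159846-53160145, the Srebf1 window, 1 of 3 for that gene, chr11:60210422-60210721 and the Mylip window chr13:45389492-45389791.
Abca1: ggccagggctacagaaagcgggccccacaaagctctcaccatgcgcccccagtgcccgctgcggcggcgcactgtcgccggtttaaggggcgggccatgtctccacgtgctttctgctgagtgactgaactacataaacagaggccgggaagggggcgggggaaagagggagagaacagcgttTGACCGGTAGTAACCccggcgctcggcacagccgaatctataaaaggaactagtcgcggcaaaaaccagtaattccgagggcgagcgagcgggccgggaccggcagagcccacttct
Srebf1: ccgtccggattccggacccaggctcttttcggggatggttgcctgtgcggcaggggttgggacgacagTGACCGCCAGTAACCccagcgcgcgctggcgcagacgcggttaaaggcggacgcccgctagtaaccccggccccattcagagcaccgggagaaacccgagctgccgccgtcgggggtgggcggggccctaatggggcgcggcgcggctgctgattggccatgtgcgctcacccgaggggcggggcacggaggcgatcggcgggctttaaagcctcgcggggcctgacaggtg
Mylip: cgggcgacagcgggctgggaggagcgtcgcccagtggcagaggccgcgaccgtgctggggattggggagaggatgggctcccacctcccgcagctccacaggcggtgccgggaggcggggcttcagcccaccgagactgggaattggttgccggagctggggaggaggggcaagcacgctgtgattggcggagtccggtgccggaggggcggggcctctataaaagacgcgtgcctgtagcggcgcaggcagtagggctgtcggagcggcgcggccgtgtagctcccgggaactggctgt

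The relaxed DR4 of Abca1 lies from base -67 to base -53 before the start site and reads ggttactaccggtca on the opposite strand. That of Srebf1 lies from base -182 to base -168 and reads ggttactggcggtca on the opposite strand. A match was held by 236 of all 32851 RefSeq windows (0.718%). Windows were found for 6 of the 10 genes (Abca1, Srebf1, Mylip, Apoe, Lpcat3 and Pltp), 10 windows in all, and the other 8 of these, which are the other 2 of Srebf1 and those of Mylip, Apoe, Lpcat3 and Pltp, held no match. The strict form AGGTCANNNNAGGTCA was in 5 of all windows (0.0152%) and in none of the 10. A single hexamer AGGTCA (16.3% of all windows) and the sterol element ATCACNCCAC bound by SREBPs (0.234%) were in none of the 10 either, and the E-box CACGTG (7.15%) was in the Abca1 window, from base -147 to base -142. Strict DR4 matches contain the relaxed form and the hexamer. A match is a string of letters in this window and is no measure of binding. A window without a match, such as that of Mylip, does not show that the gene lacks an element outside it. Abcg1, Apoc1, Scd1 and Scd2 had no window in the table.

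Abca1, which exports cholesterol and phospholipid to lipid-poor apolipoprotein A-I, had the largest change of the 10 genes. Its gene (ENSMUSG00000015243) occupies chr4:53030787-53159895 on the minus strand of GRCm38. It had 28.49, 21.31 and 29.15 FPKM in untreated replicates 1 to 3 and 74.96, 57.88 and 57.06 FPKM in treated replicates 1 to 3. The lowest treated library thus lay far above the highest untreated one. The log2 fold change was 1.27 (SE 0.17, 95% interval 0.87 to 1.67), a 2.41-fold rise with an edgeR adjusted p of 0.00674. The counts behind it ran from 4028 to 12415. The call held in each of the 17 alternative fits, with adjusted p up to 0.0383 without untreated replicate 1.

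Abcg1, which passes cholesterol to mature HDL particles, rose less. Its gene (ENSMUSG00000024030) occupies chr17:31057675-31117988 on the plus strand of GRCm38. It had 15.69, 16.08 and 14.82 FPKM in untreated replicates 1 to 3 and 23.88, 24.47 and 26.95 FPKM in treated replicates 1 to 3. Both groups were tight, and they did not overlap. The log2 fold change was 0.70 (SE 0.09, 95% interval 0.49 to 0.91), a 1.62-fold rise with an edgeR adjusted p of 0.00553. The call held in each of the 17 alternative fits, with adjusted p up to 0.0419 without untreated replicate 3. The ratio of Abca1 to Abcg1 in FPKM was 1.82, 1.33 and 1.97 in untreated and 3.14, 2.37 and 2.12 in treated replicates 1 to 3.

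The median log2 value of the Kupffer cell list was 0.47 (range -0.03 to 1.14). That of the tested neutrophil markers was 1.67 (range -0.81 to 3.04). In treated replicates 1 to 3 the neutrophil list summed to 477.1, 911.9 and 347.6 FPKM, and the Kupffer cell list to 1548, 1358 and 1561 FPKM. Without treated replicate 2 the log2 fold changes of Abca1 and Abcg1 were 1.33 and 0.72, with edgeR adjusted p of 0.00942 and 0.00995. That fit cannot separate a neutrophil part of the rises, since the remaining treated libraries also had neutrophil sums above every untreated library. The part of Kupffer cell or neutrophil RNA in these rises was not tested.

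Mylip, the ubiquitin ligase also called Idol that limits lipoprotein uptake, is also known as an LXR target and fell. Its gene (ENSMUSG00000038175) occupies chr13:45389742-45412022 on the plus strand of GRCm38. It had 157.1, 145.9 and 158.4 FPKM in untreated replicates 1 to 3 and 83.53, 69.78 and 104.1 FPKM in treated replicates 1 to 3. The groups did not overlap, and treated replicate 3 was nearest to the untreated libraries. The log2 fold change was -0.83 (SE 0.16, 95% interval -1.20 to -0.47), a 1.78-fold fall with an edgeR adjusted p of 0.0227. The call was lost without untreated replicate 1, untreated replicate 3 or treated replicate 1, where the edgeR adjusted p was 0.0934, 0.0987 and 0.0807, and the log2 values stayed between -0.82 and -0.80. Endothelial markers went both ways in the same libraries, with 2 of 9 lower, 1 higher (Lyve1, log2 1.79, edgeR adjusted p = 0.00138), a median log2 value of -0.36 and a range from -0.78 to 1.79. The part of endothelial RNA in the fall of Mylip was not tested.

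Apoe and Apoc1 encode apolipoproteins that lie next to each other on chromosome 7, and neither passed the threshold. Apoe (ENSMUSG00000002985, chr7:19696109-19699188, minus strand), which carries cholesterol away from macrophages, had 1253, 1172 and 1075 FPKM in untreated replicates 1 to 3 and 1217, 1252 and 1177 FPKM in treated replicates 1 to 3. Every treated value lay within the untreated range. The log2 fold change was 0.07 (SE 0.10, edgeR adjusted p = 0.759), and its 95% interval from -0.18 to 0.31 was narrow, with counts between 41194 and 48708 per library. That interval lies below the whole interval of Abca1. Apoc1 (ENSMUSG00000040564, chr7:19689481-19692660, minus strand), a small apolipoprotein of HDL and VLDL, had 108.3, 60.14 and 90.95 FPKM in untreated and 93.26, 78.07 and 69.98 FPKM in treated replicates 1 to 3 (log2 -0.10, SE 0.22, 95% interval -0.61 to 0.41, edgeR adjusted p = 0.822). Its lowest library was untreated replicate 2, and its log2 value became 0.09 without untreated replicate 1.

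Srebf1 (ENSMUSG00000020538, chr11:60199089-60222581, minus strand), the gene of the lipogenic factor SREBP1, was the least abundant of the 10. It had 7.17, 7.57 and 5.37 FPKM in untreated replicates 1 to 3 and 8.34, 10 and 8.19 FPKM in treated replicates 1 to 3. The treated libraries lay above the untreated ones, but the difference did not pass: the log2 fold change was 0.41 (SE 0.14, 95% interval 0.07 to 0.74), with an unadjusted p of 0.0229 and an edgeR adjusted p of 0.133. It was also not called in any of the 17 alternative fits. The gene has separate starts for the SREBP1a and SREBP1c transcripts, which a count per gene sums, so the values cannot be assigned to the start whose window is printed.

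Scd1 and Scd2, paralogs on chromosome 19, encode stearoyl-CoA desaturases that make monounsaturated fatty acids. Scd2 (ENSMUSG00000025203, chr19:44293674-44306864, plus strand) had 16.52, 19.04 and 16.76 FPKM in untreated replicates 1 to 3 and 20.67, 24.52 and 22.78 FPKM in treated replicates 1 to 3, without overlap. Its log2 fold change of 0.39 (SE 0.10, 95% interval 0.15 to 0.62) missed the threshold with an edgeR adjusted p of 0.0584, and of the 17 alternatives DESeq2 called it (adjusted p = 0.0121). Scd1 (ENSMUSG00000037071, chr19:44394455-44407879, minus strand) had the largest SE of the 10 genes on the log2 scale, with 42.26, 14.33 and 47.24 FPKM in untreated and 65.91, 62.25 and 33.44 FPKM in treated replicates 1 to 3. The groups overlapped (log2 0.63, SE 0.44, 95% interval -0.41 to 1.67, edgeR adjusted p = 0.440), and the log2 value was 0.26 without untreated replicate 2. The 2 libraries with the lowest Scd1 were also the 2 with the lowest sums of hepatocyte markers, untreated replicate 2 (868.3 FPKM) and treated replicate 3 (631.5 FPKM), and those with the highest Scd1 had the highest sums, treated replicates 1 and 2 (1923 and 1668 FPKM). Alb alone gave 1239.5 and 1079.9 FPKM of the sums in treated replicates 1 and 2. Trf also had its lowest values in untreated replicate 2 (152.3 FPKM) and treated replicate 3 (128.0 FPKM), but its highest in untreated replicate 1 (270.0 FPKM). The part of hepatocyte RNA in the Scd1 values was not tested. Of the 50-base stretches of their transcripts in GENCODE M21, 4.56% of those of Scd1 and 3.97% of those of Scd2 also occur in another gene, most often Scd3 and Scd1 in turn, so the values of both are uncertain by the reads such stretches take.

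Lpcat3 and Pltp handle phospholipids. Lpcat3 (ENSMUSG00000004270, chr6:124663027-124704418, plus strand), which loads membrane phospholipids with polyunsaturated fatty acids, had 11.31, 13.74 and 10.25 FPKM in untreated and 10.86, 12.98 and 11.74 FPKM in treated replicates 1 to 3 (log2 0.02, SE 0.13, 95% interval -0.27 to 0.31, edgeR adjusted p = 0.946). Its log2 value changed sign in 3 fits that left out a library. Pltp (ENSMUSG00000017754, chr2:164839518-164857711, minus strand), the phospholipid transfer protein that remodels HDL, had 39.27, 25.62 and 31.18 FPKM in untreated and 37.32, 43.77 and 31.53 FPKM in treated replicates 1 to 3 (log2 0.23, SE 0.18, 95% interval -0.19 to 0.66, edgeR adjusted p = 0.495). The groups of both overlapped. Genes on the opposite strand share exonic bases with them, Emg1 with 10.2% of the Lpcat3 exons and Ctsa with 19.3% of those of Pltp, and reads of such overlaps cannot be told apart without strand. Ctsa itself had between 47.41 and 59.07 FPKM.

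**Figure D3:**
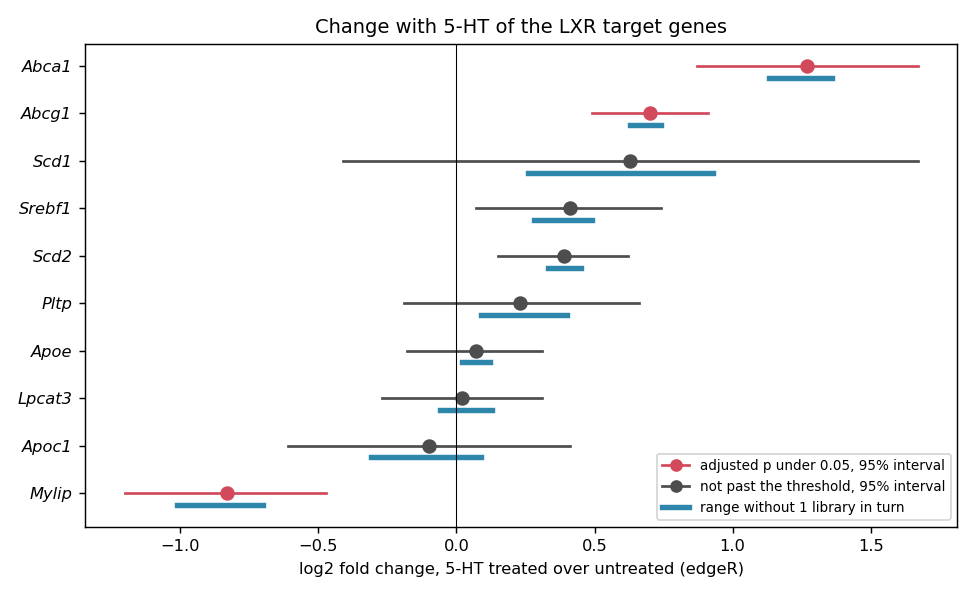
Log2 fold change of each gene, 5-HT treated over untreated, from edgeR, with its 95% interval and, in blue, the range of the value when each library was left out in turn. Abca1 (1.27) and Abcg1 (0.70) lie above 0 and Mylip (-0.83) below it with adjusted p under 0.05, and the widest interval is that of Scd1 (-0.41 to 1.67).

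Among the receptors 1 fell and 0 rose, beside 3.19% called lower and 4.55% called higher among all tested genes. Nr1h3, the gene of LXR alpha, had 13.62, 11.40 and 9.46 FPKM in untreated and 13.76, 13.05 and 15.45 FPKM in treated replicates 1 to 3 (log2 0.30, SE 0.15, edgeR adjusted p = 0.267). Nr1h2, the gene of LXR beta, was at 19.3 ± 2.39 and 19.2 ± 0.425 FPKM (log2 0.00, 95% interval -0.25 to 0.24, edgeR adjusted p = 0.995). Rxra, which encodes the RXR partner, fell from 28.4 ± 1.6 to 20.2 ± 1.22 FPKM with a log2 fold change of -0.48 (SE 0.09) and an edgeR adjusted p of 0.0222, the 1 call among 9 receptors and cofactors, whose median log2 value was 0.00. The call of Rxra was lost in 5 of 17 alternatives, among them the fits without untreated replicate 1 or 3 or without treated replicate 1 (adjusted p up to 0.105).

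Of 17 tested genes from a list of other LXR targets, 1 rose and 1 fell, with a median log2 value of -0.13. Over all tested genes 4.55% rose, 3.19% fell and 8708 of 16641 had negative log2 values. The counts of these and the following lists are descriptions beside those shares. Arl4c, a small GTPase of cholesterol transport, went from 10.7 ± 2.75 to 17.3 ± 0.565 FPKM with a log2 fold change of 0.71 (SE 0.16, edgeR adjusted p = 0.0409), and Nr0b2, the repressor receptor SHP, from 2.00 ± 0.485 to 0.643 ± 0.202 FPKM with a log2 fold change of -1.62 (SE 0.37, edgeR adjusted p = 0.0410). Their calls were lost in 9 and 8 of 17 alternatives, Nr0b2 in each of the 6 fits that left out a library and Arl4c in each of these except the fit without untreated replicate 2, with adjusted p up to 0.157 and 0.165. Nr0b2 rested on low counts, from 8 to 47 per library.

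Of 14 tested genes of SREBP1 action and fatty acid synthesis, 1 fell, 0 rose and 9 had negative log2 values (median -0.24), beside the 3.19% called lower among all genes. The gene that fell was Me1, the malic enzyme that supplies NADPH, from 12.1 ± 2.22 to 6.49 ± 1.14 FPKM, a log2 fold change of -0.89 (SE 0.18, edgeR adjusted p = 0.0291). That call was lost in 5 of 17 alternatives, among them the fits without untreated replicate 1 or 3 or without treated replicate 2 or 3 (adjusted p up to 0.121).

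Among 15 genes listed under cholesterol esterification, release and HDL, 1 rose and 1 fell (median log2 0.06). The list includes Acat2, the gene of an acetyl-CoA acetyltransferase that does not esterify cholesterol (log2 -0.09, edgeR adjusted p = 0.807). Ch25h, which makes the LXR ligand 25-hydroxycholesterol, had 0.67, 1.34 and 0.95 FPKM in untreated and 16.65, 12.46 and 7.76 FPKM in treated replicates 1 to 3. The lowest treated library lay well above the highest untreated one (log2 3.63, SE 0.36, edgeR adjusted p = 0.00235), and the call held in each of 17 alternatives. Cyp27a1, which makes another oxysterol ligand, had lower values with 5-HT and did not pass (18.0 ± 1.44 to 13.7 ± 1.56 FPKM, log2 -0.39, edgeR adjusted p = 0.0792). Stard4, a cytosolic cholesterol carrier, fell from 16.6 ± 0.856 to 11.4 ± 1.04 FPKM with a log2 fold change of -0.53 (SE 0.10) and an edgeR adjusted p of 0.0255. Its call did not hold in 5 of 17 alternatives, among them the fits without untreated replicate 1 or 3 or without treated replicate 1 or 2 (adjusted p up to 0.107).

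In cholesterol synthesis 2 of 12 tested genes fell and 0 rose, with 10 negative log2 values (median -0.10), beside 3.19% called lower and 8708 of 16641 negative among all genes. Idi1, the isopentenyl diphosphate isomerase, went from 5.08 ± 1.42 to 2.06 ± 0.119 FPKM, a log2 fold change of -1.30 (SE 0.23, edgeR adjusted p = 0.0182), and Hmgcs1, the cytosolic HMG-CoA synthase, from 12.3 ± 0.979 to 8.92 ± 0.828 FPKM, a log2 fold change of -0.46 (SE 0.11, edgeR adjusted p = 0.0452). Idi1 lost its call without untreated replicate 1 or 3 or treated replicate 1 (adjusted p up to 0.0846), and Hmgcs1 in 8 of 17 alternatives, among them 5 of the 6 fits without a library, the exception being that without treated replicate 2 (adjusted p up to 0.149). Srebf2, the gene of the sterol-sensing factor SREBP2, did not pass, at 8.58 ± 2.12 and 8.50 ± 1.71 FPKM (log2 0.00, 95% interval -0.46 to 0.45, edgeR adjusted p = 0.993).

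**Figure D4:**
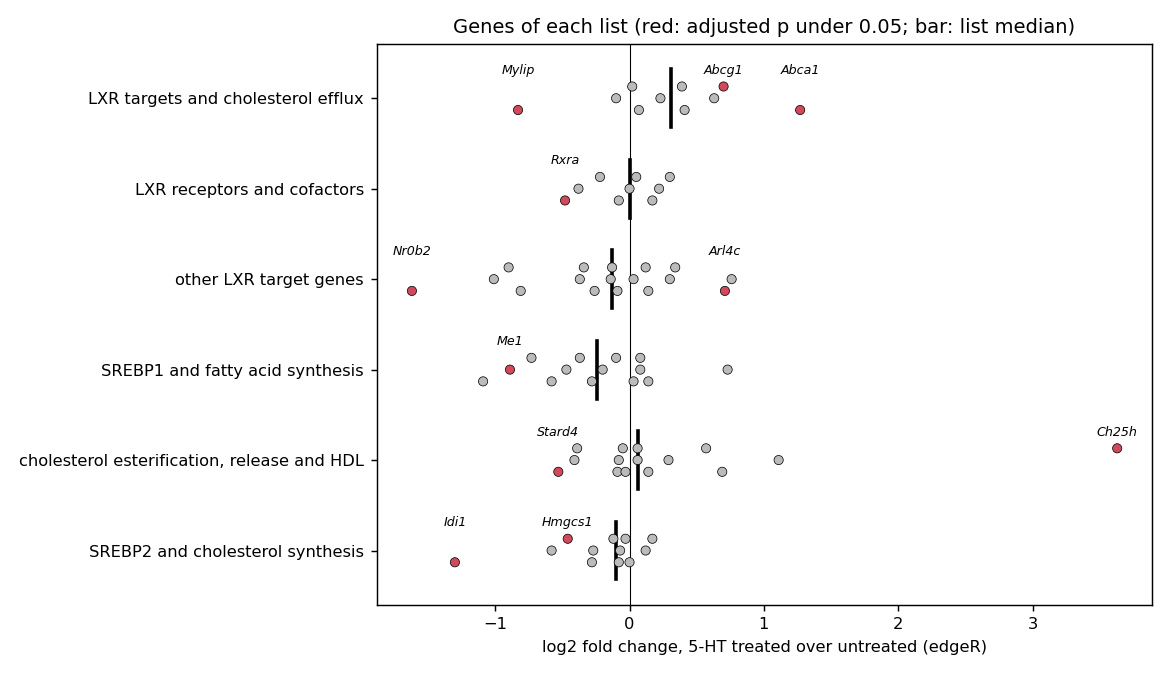
Log2 fold change, 5-HT treated over untreated, of each tested gene of the 10-gene set and of 5 related lists, with calls at an edgeR adjusted p under 0.05 in red and named, and a bar at each list's median. The medians lie between -0.24 and 0.31, and Ch25h (3.63) lies farthest from 0.

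The profiles most like those of the 3 called genes were sought among 7358 tested genes whose mean reached 5 FPKM. Left out of this search were the members, all genes of the pathway and marker lists, and genes with shared symbols or clone names. Likeness was the smallest root mean square difference of log2 CPM (counts scaled to library size), centred on each gene's mean, over the 6 libraries. For Abca1 the most similar genes were Pilra and Ptgs2, the latter the inducible cyclooxygenase (differences of 0.0922 and 0.0947 log2 units). For Abcg1 they were the actin gene Actg1 and the cytokine gene Tgfb1 (0.0426 and 0.0455), and for Mylip the natriuretic peptide receptor gene Npr1 and the lectin pathway protease gene Masp1 (0.0392 and 0.0456). Npr1 went from 121.8, 110.2 and 112.5 FPKM in untreated to 62.80, 53.17 and 78.56 FPKM in treated replicates 1 to 3. Its order of libraries was that of Mylip among the treated but not among the untreated. Since Npr1 was chosen for its likeness in these libraries, the shared order is no separate result.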

How the data were processed

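Tools named in the submitters' processing notes, without roles, are featureCounts 2.0.1 and HISAT2 2.2.1, with the build mm10. Raw counts and FPKM per gene are deposited by the authors, per the file headers; 100% of the FPKM of at least 1 matched count, exonic length and total count within 0.5% or rounding. The sources used here do not say whether counting used strand. Positions are from GENCODE M21 (GRCm38), by identifier, since only 1472 of 52073 matched genes had the table's start and end. Library totals ran from 15390956 to 19050039 counts.

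Counts were tested in R 4.3.3 with edgeR 4.0.16 (TMM, filterByExpr, quasi-likelihood, two-sided), with Benjamini-Hochberg adjustment over 16641 genes and a threshold of 0.05, after a test on simulated data. Replicates of a group had a chi-square per degree of freedom of 6.38 to 56.4, where counting noise alone would give about 1, and were kept separate. The SE is the absolute log2 fold change over the square root of F, and the intervals use the fit's degrees of freedom. The members and lists were chosen with earlier results of these data known. Named besides the members were up to 4 called genes per pathway list, 7 preset genes (1 of them not reported here), the 2 most abundant markers per list, 2 genes of most similar profile per called member and genes that share exonic bases or sequence with members. Alternatives used other filters and scalings, DESeq2 1.42.0, limma 3.58.1 on log2(FPKM + 0.1, 1 or 5) and on counts (voom), a replicate block and 1 library fewer.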

Additional observations from a re-analysis of the deposited data

How the results depend on the processing

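Across 17 alternatives, 2 of the 10 genes were called higher and 1 lower, except that DESeq2 called 3 higher and that the number called lower ran from 0 to 1 when a library was left out. Over all genes, the 757 higher and 531 lower calls became 1242 and 1022 with DESeq2 and 464 and 323 with limma at a pseudocount of 0.1. Leaving out a library in turn gave 218 to 672 higher and 111 to 675 lower calls. Signs changed for values near 0, none of them called: Apoc1 reached 0.09 (from -0.31), Lpcat3 -0.06 (to 0.13), Nr1h2 from -0.09 to 0.07 and Srebf2 from -0.18 to 0.20 without a library, and Nr1h2 and Srebf2 were at 0.00 or 0.01 with no filter, the replicate block and limma-voom and Nr1h2 at 0.00 with RLE scaling, upper quartile scaling and DESeq2. The cause was not tested. With the replicate block 542 genes were higher and 354 lower, the 3 calls among the 10 genes stood, and those of Rxra, Nr0b2 and Hmgcs1 were lost. Same-numbered libraries deviated together with correlations of 0.07, 0.07 and -0.01, beside -0.14 to 0.09 for libraries of other numbers. These values show no pairing by number but cannot exclude it, and the labels do not state it. With 3 libraries a group, an exact permutation test of a single gene cannot go below 0.1. The 58.8% share of higher among all calls was 49.7% without untreated replicate 2 and 66.3% without untreated replicate 1. On the log2(FPKM + 5) scale, which understates the change of low genes, the calls of Nr0b2, Me1, Idi1 and Ch25h stood with values of -0.31, -0.57, -0.51 and 1.5. The call of Arl4c was lost on that scale (0.52, limma adjusted p = 0.0629).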
